A study of Homo sapiens with 6 samples.

Results

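SP100, SP110, SP140 and SP140L are the 4 speckled protein genes that sit side by side on human chromosome 2. They were read from a table of RNA-seq counts for 79172 gene names by their symbols, and all 4 were found. The family was chosen with earlier results of this contrast known, so the values that set HK1-overexpressing against control cells are given for the members as a description, and nothing is inferred from them. The cells were Huh7, an established human hepatocellular carcinoma line. HK1 overexpressing cells (3 libraries) were compared with cells whose genotype is labelled Control (3 libraries), to ask what extra hexokinase 1, the enzyme of the first step of glucose use, does to these cells. All libraries share the Huh7 background. How HK1 was introduced, whether the overexpressing cells are a clone or a pool, and what the control cells received are not given in the sources used here.

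Speckled proteins are nuclear proteins that read chromatin. SP100 is a defining resident of PML nuclear bodies, the round structures built on the PML protein and held together by attachment of the small modifier SUMO. All members carry an N-terminal self-association domain, and longer forms add a SAND domain that contacts DNA, a PHD finger and a bromodomain. SP100, SP110 and SP140 are known interferon-stimulated genes. In the liver they are known mainly from disease: SP100, SP140 and SP140L are autoantigens in primary biliary cholangitis, and loss of human SP110 causes hepatic veno-occlusive disease with immunodeficiency. SP140 is best known from leukocytes, where it keeps genes of other lineages silent.

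The libraries held 19607663 to 20823072 counts in HK1-overexpressing cells and 16771835 to 20071846 in Control. HK1, which checks the labels, had 9723, 10602 and 11101 counts in HK1-overexpressing libraries, against 13, 15 and 13 in Control. Replicates differed by more than sampling noise, with a chi-square per degree of freedom of 1.58 to 2.28 between pairs of HK1-overexpressing libraries and 5.08 to 11.3 between Control pairs, so every library was kept. The labels do not say that replicates were separate cultures, so p-values measure the spread between these libraries, which may be technical.

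The members lie in 380.4 kb of chromosome 2 (hg38), from 230165186 to 230545606. SP110 is on the minus strand from 230165186 to 230225729. SP140 (230203110 to 230313215), SP140L (230327184 to 230403732) and SP100 (230415942 to 230545606) follow on the plus strand. The annotated spans of SP110 and SP140 overlap by 22620 bases head to head, while 13968 bases separate SP140 from SP140L and 12209 separate SP140L from SP100. SP110 and SP140 share 170 exonic bases on opposite strands. Per the file headers the counting set no strand option and no option for fragments that overlap several genes, so fragments in those bases may be missing from both genes. The share of exonic bases that overlap another gene name was 19.4% for SP110, 10.3% for SP140L, 4.77% for SP100 and 3.05% for SP140.

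Each gene has a start region that carries a near-identical stretch, which is why these sequences are shown. The promoter windows, 250 bases before to 50 after each annotated start (RefSeq, GRCh38.p14), are written 5′ to 3′ on the gene's strand with the stretch in capitals. SP140 stands for SP110 as well, since the upstream window of SP110 overlaps its window by 199 bases on the other strand and holds the same copy of the stretch. The windows are chr2:230225486-230225785 for SP140, chr2:230326943-230327242 for SP140L and chr2:230415951-230416250 for SP100, all on the plus strand.
SP140: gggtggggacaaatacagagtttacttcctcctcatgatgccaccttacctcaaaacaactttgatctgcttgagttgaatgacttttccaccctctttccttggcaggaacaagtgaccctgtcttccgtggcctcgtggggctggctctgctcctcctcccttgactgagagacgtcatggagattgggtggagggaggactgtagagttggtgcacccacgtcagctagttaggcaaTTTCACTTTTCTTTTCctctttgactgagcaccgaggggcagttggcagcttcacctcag
SP140L: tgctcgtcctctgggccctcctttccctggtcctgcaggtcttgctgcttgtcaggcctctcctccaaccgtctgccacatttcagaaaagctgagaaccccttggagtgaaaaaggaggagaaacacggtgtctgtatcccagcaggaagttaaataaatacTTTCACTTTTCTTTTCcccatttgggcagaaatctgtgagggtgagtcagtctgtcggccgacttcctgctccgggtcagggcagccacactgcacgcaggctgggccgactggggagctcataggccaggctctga
SP100: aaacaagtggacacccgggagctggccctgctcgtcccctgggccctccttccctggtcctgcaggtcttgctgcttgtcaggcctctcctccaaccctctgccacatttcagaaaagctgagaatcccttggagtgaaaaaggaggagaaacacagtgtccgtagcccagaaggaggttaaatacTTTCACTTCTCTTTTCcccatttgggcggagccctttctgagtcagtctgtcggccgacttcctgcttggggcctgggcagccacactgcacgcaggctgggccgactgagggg
Among the windows of these 3 genes, SP140L and SP100 are near copies of each other: 251 of 272 aligned bases, 92.3%, were identical.

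Set in a common orientation, with 12 bases on either side in lower case, the stretch read as follows in each window that held it or came within 1 substitution. SP110 has a second annotated start, whose window (chr2:230219935-230220234, minus strand) holds a copy of its own.
SP110 upstream start and SP140: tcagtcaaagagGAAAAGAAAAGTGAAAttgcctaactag
SP110 second start: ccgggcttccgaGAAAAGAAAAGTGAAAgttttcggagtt
SP140L: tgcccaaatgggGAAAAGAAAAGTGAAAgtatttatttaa
SP100: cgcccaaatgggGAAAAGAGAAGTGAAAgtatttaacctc
The first 3 are identical over the 16 capitals. SP100 differs by A8G, counted from 1 at the 5′ end of the capitals, with the base of the others first. The stretch begins 105 bases before the upstream start of SP110 and 51 before its second start. It begins 10 before the start of SP140, 87 before that of SP140L and 64 before the upstream start of SP100. SP100 also has a second annotated start (window chr2:230416506-230416805, plus strand). The closest match to the stretch in that window had 6 substitutions. The 16 bases GAAAAGAAAAGTGAAA were chosen after the sequences were seen, as the longest run common to both windows of SP110 and those of SP140 and SP140L. Their presence in those windows was thus fixed in advance. On either strand they occurred in 4 of 35116 RefSeq promoter windows (0.0114%), and those 4 were the windows of SP110 (both), SP140 and SP140L. The upstream window of SP110 and that of SP140 hold the same copy.

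Motifs of interferon-responsive promoters were searched on both strands of the 6 windows listed for the family. GAAANNGAAA, the core of the classical interferon-stimulated response element, was in none of them and in 3.57% of all windows. GAAANNNGAAA, which differs by an added base in the gap and lies within the 16 bases, was in both windows of SP110 and in those of SP140 and SP140L, and in 2.86% of all windows. GGAANNGAAA, the form bound jointly by ETS and IRF factors, overlaps the same stretch in the upstream window of SP110 and in those of SP140 and SP140L, and was in 2.82% of all windows. TTCNNNGAA, the form bound by STAT dimers, was in the second window of SP110 and in 7.66% of all windows. The windows of SP100 held none of these letters. A match describes a sequence and does not show that a factor binds there.

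SP140 had the largest difference of the family, about a doubling. Raw counts were 331, 343 and 322 in HK1-overexpressing libraries, against 149, 149 and 130 in Control. On the CPM scale (the count over the library total times its TMM factor, times 1000000) that is 16.7, 16.5 and 15.3 in HK1-overexpressing cells and 7.49, 8.74 and 7.89 in Control. The lowest HK1-overexpressing library lay well above the highest Control library. Means were 16.1 ± 0.775 CPM in HK1-overexpressing cells and 8.04 ± 0.638 CPM in Control (SD, n = 3 each), a log2 fold change of 1.01 with a standard error of 0.0926. SP140 was also the least abundant member by count, and its counts alone allow a relative error of 8.37% for a Control library, close to the 7.93% coefficient of variation seen there. In bulk RNA, more cells that express a gene and more RNA per cell cannot be told apart.

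SP110, which is interferon-inducible and shares its start region with SP140, was higher by a smaller amount. Its counts were 560, 558 and 581 in HK1-overexpressing libraries and 372, 335 and 305 in Control. Levels were 28.2, 26.8 and 27.5 CPM in HK1-overexpressing cells, against 18.7, 19.7 and 18.5 CPM in Control. The groups did not overlap. Means were 27.5 ± 0.687 CPM and 19.0 ± 0.610 CPM in HK1-overexpressing and Control cells (SD, n = 3 each), a log2 fold change of 0.54 with a standard error of 0.0707. Counts of SP140 per count of SP110 were 0.591, 0.615 and 0.554 in HK1-overexpressing libraries and 0.401, 0.445 and 0.426 in Control, and the groups did not overlap.

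SP100, the founding member and the PML body protein that binds heterochromatin protein HP1, had the most counts. They numbered 1489, 1601 and 1537 in HK1-overexpressing libraries, against 1073, 944 and 964 in Control. Levels were 75.01, 77.0 and 72.8 CPM in HK1-overexpressing cells and 53.9, 55.4 and 58.5 CPM in Control, again without overlap. Means were 74.9 ± 2.10 CPM in HK1-overexpressing cells and 55.9 ± 2.33 CPM in Control (SD, n = 3 each), a log2 fold change of 0.42 with a standard error of 0.0581.

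SP140L, a primate-specific relative whose function is little known, was nearly level. Its counts were 996, 1044 and 1042 in HK1-overexpressing libraries and 878, 781 and 761 in Control. Levels were 50.2, 50.2 and 49.4 CPM in HK1-overexpressing cells, against 44.1, 45.8 and 46.2 CPM in Control. The groups came close without overlapping: the lowest HK1-overexpressing library had 49.4 CPM and the highest Control library 46.2 CPM. The log2 fold change was 0.14 with a standard error of 0.0583. SP140L had the smallest difference of the 4. Its window holds the same 16 bases as that of SP140, and whether they bear on the change was not tested.

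**Figure D1:**
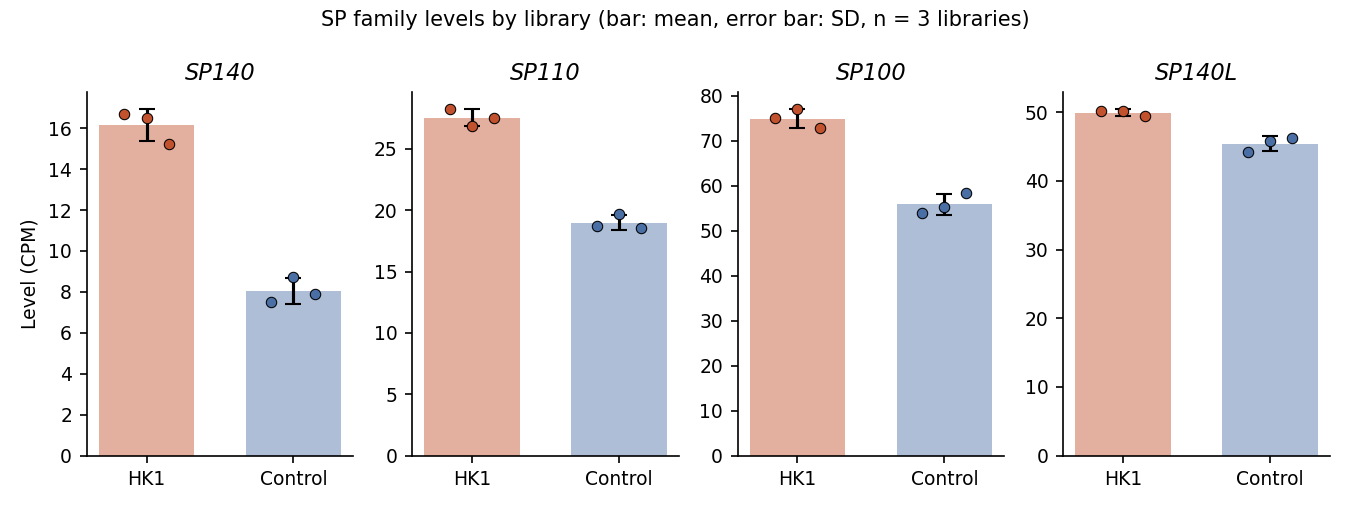
Levels of the 4 family members in library-scaled counts (CPM, linear axis from 0, a separate scale for each gene), with HK1-overexpressing libraries (HK1) left and Control libraries right in each panel. Points are libraries, bars the mean and error bars the SD of 3 libraries; the groups do not overlap in any panel, and relative to the Control mean the gap is widest for SP140 (16.1 against 8.04 CPM) and narrowest for SP140L (49.9 against 45.4 CPM).

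By the edgeR quasi-likelihood test across all 16734 tested genes, 3 of the 4 members, all but SP140L, were among the genes called higher at a Benjamini-Hochberg adjusted p below 0.05, a count that is no evidence about a family chosen on this contrast. Of all tested genes 8.02% were called, 3.87% higher and 4.15% lower. These are 648 higher and 694 lower genes, against 898 and 463 with library totals in place of TMM factors and 932 and 685 with no filter on low counts. Levels of all 4 members did not overlap between the groups, which held for 27.8% of tested genes in either direction and 14.0% with HK1-overexpressing cells higher and 13.9% with them lower. Nothing is read from this count either. The median log2 change over all tested genes was 0.0063, and its quartiles were -0.109 and 0.140. By size of rise, SP140 ranked 130, SP110 688, SP100 1123 and SP140L 4229 of the 16734.

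**Figure D2:**
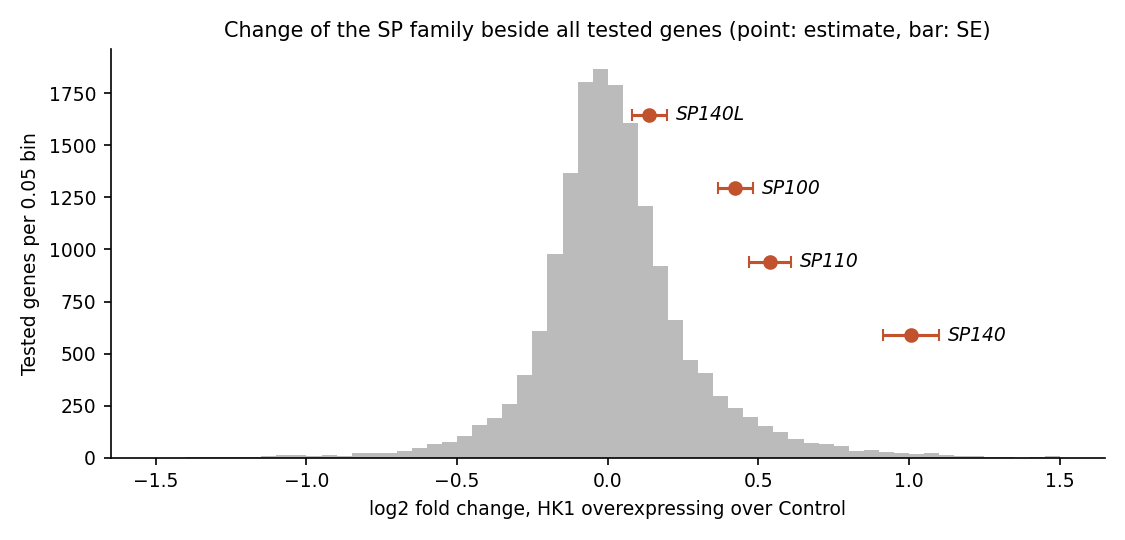
Log2 fold change of HK1-overexpressing over Control cells for the 4 members (points, with the standard error as bars, placed at arbitrary heights) on a histogram of all tested genes in bins of 0.05. The axis is drawn to 1.5 either way and leaves out 48 genes beyond it; SP140 at 1.01 lies in the right tail, SP110 at 0.54 and SP100 at 0.42 on the right shoulder, and SP140L at 0.14 within the bulk.

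The make-up of the family is given by each member's share of its counts. Of the counts of all 4 genes, SP140 took 9.25% to 9.81% in HK1-overexpressing libraries and 6.02% to 6.75% in Control. SP140L took 29.4% to 29.9% in HK1-overexpressing libraries, against 35.2% to 35.5% in Control. The shares of SP100, at 44.1% to 45.2% in HK1-overexpressing libraries and 42.7% to 44.6% in Control, overlapped. SP110 had 15.7% to 16.7% in HK1-overexpressing libraries and 14.1% to 15.2% in Control. Summed over the family, the level was 168.5 ± 3.16 CPM in HK1-overexpressing cells and 128.3 ± 3.57 CPM in Control (SD, n = 3 each).

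**Figure D3:**
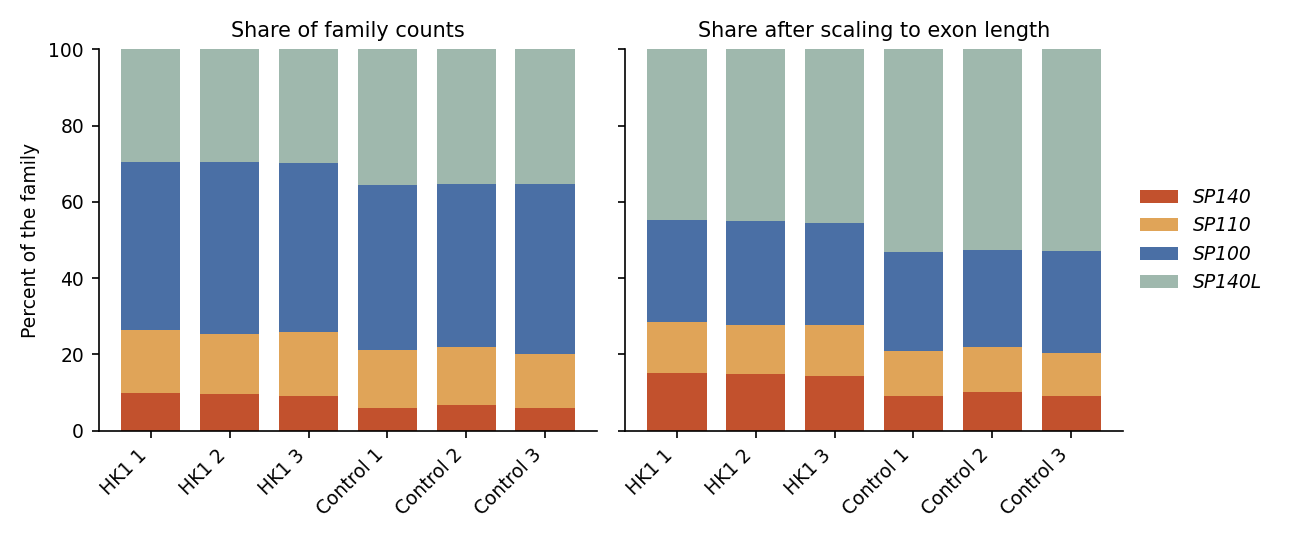
Share of each member in the summed counts of the family (left) and after dividing counts by summed exon length (right), in percent, for each of the 3 HK1-overexpressing libraries (HK1) and 3 Control libraries. SP140L takes the largest share by length in all 6 libraries, 44.8% to 45.5% in HK1-overexpressing cells and 52.6% to 53.1% in Control, and the share of SP140 is larger in every HK1-overexpressing library than in any Control library.

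Which member is the most abundant depended on the gene length used. Per kilobase of all annotated exons (RPKM, from exon lengths of 5650 bases for SP140L, 14134 for SP100, 10685 for SP110 and 5582 for SP140), levels in HK1-overexpressing cells were 8.84 ± 0.0855 for SP140L, 5.30 ± 0.149 for SP100, 2.89 ± 0.139 for SP140 and 2.58 ± 0.0643 for SP110 (SD, n = 3 each). In Control they were 8.03 ± 0.192 for SP140L, 3.96 ± 0.165 for SP100, 1.77 ± 0.0571 for SP110 and 1.44 ± 0.114 for SP140. On this scale SP140 and SP110 changed places between the groups. The lengths sum the exons of every annotated form. With the longest protein-coding transcript of GENCODE release 29 instead, a length chosen after the data were seen, SP140 was lowest in both groups, at 4.97 ± 0.240 and 2.48 ± 0.196 CPM per kilobase in HK1-overexpressing and Control cells. SP100 and SP140L were then close, at 19.3 ± 0.540 and 18.7 ± 0.181 CPM per kilobase in HK1-overexpressing cells and 14.4 ± 0.601 and 17.0 ± 0.407 in Control.

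Sequence shared between genes, by likeness or by overlap in position, limits how well the members can be separated. Of all distinct 75-base windows in the GENCODE release 29 transcripts of SP140, 9.01% also occurred in SP140L, and 9.15% of those of SP140L occurred in SP140. No such window was shared between SP100 and the other members. Of the windows of SP100, 3.6% occurred in the pseudogene HMGB1P3, which lies within the gene. Of the windows of SP110, 14.6% occurred in AC009950.1 and 1.34% in SP140. Windows were matched on either strand, so exons that overlap in position count as shared. SP110 and SP140 share 170 exonic bases on opposite strands, and SP100 shares 544 with HMGB1P3. The shares for those pairs, and that for AC009950.1, may thus reflect position and do not show that the transcripts resemble each other. Counts of SP140 and SP140L may be affected, since fragments that map to both may have gone uncounted. A share of windows is not a share of fragments, and how many fragments were lost was not measured.

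The members differed from each other in their profile over the 6 libraries. After centring log2 CPM, SP100 and SP110 were the closest pair, with a root mean square difference of 0.0856, and SP140 and SP140L the farthest, at 0.438. Each member was also compared with 10934 genes with a mean of at least 5 CPM, the other members included. Those closest to SP140 were NTN4 (0.0731), EMP1 (0.0775), AKR1B1 (0.0781), SH2D5 (0.0867) and IGFL2-AS1 (0.0912). FBXO2 (0.0312), SPEN-AS1 (0.0342), STX11 (0.0350), ASAH1 (0.0371) and PHF11 (0.0399) came closest to SP100. For SP110 they included EMP3 (0.0390), ARHGAP5-AS1 (0.0396), SPHK1 (0.0401) and HERC6 (0.0409). PGK1 (0.0130), PIP4K2C (0.0151), CHMP5 (0.0153), RNF149 (0.0157) and ATP6V1H (0.0173) came closest to SP140L. These distances describe 6 libraries in 2 groups, and a gene of like size of change scores as close.

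Of 42 other gene names with an exon within 500 kb of it, 11 passed the filter on low counts, 1 rose and 1 fell, each 9.09% of the 11, against 3.87% higher and 4.15% lower over all tested genes. The rise was of SLC16A14, which encodes an orphan transporter of the monocarboxylate family and is the nearest tested gene beyond SP110, 96.2 kb away. It had 14.8, 15.8 and 15.3 CPM in HK1-overexpressing libraries, against 9.80, 8.39 and 10.3 CPM in Control (log2 0.68, SE 0.0940, edgeR adjusted p = 0.000403). The fall was of C2orf72, 491.9 kb beyond SP100, with 69.5, 70.1 and 71.0 CPM in HK1-overexpressing libraries and 83.8, 84.6 and 85.7 CPM in Control (log2 -0.27, SE 0.0524, edgeR adjusted p = 0.00528). Its call was lost without HK1-overexpressing replicate 1 or 2 (edgeR adjusted p = 0.0527 and 0.0525). TRIP12, a ubiquitin ligase gene, had a log2 change of 0.13, CAB39 of 0.07, ITM2C of 0.08 and FBXO36 of -0.06, and none passed the test. TRIP12 passed without Control replicate 1 (edgeR adjusted p = 0.00835). The other 5, BANF1P3, TPM3P8, RN7SL834P, SPATA3-AS1 and ENSG00000308860, averaged under 6 CPM and did not pass, at log2 changes of 0.01, 0.04, 0.81, -0.15 and 0.01. The last lies within SP100 on the opposite strand, and RN7SL834P lies within it on the same strand. RN7SL834P averaged 0.830 CPM in HK1-overexpressing cells and 0.464 CPM in Control, so it passed the filter on low counts only through the group where it was higher. Neighbours that rose were 2 without Control replicate 1.

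**Figure D4:**
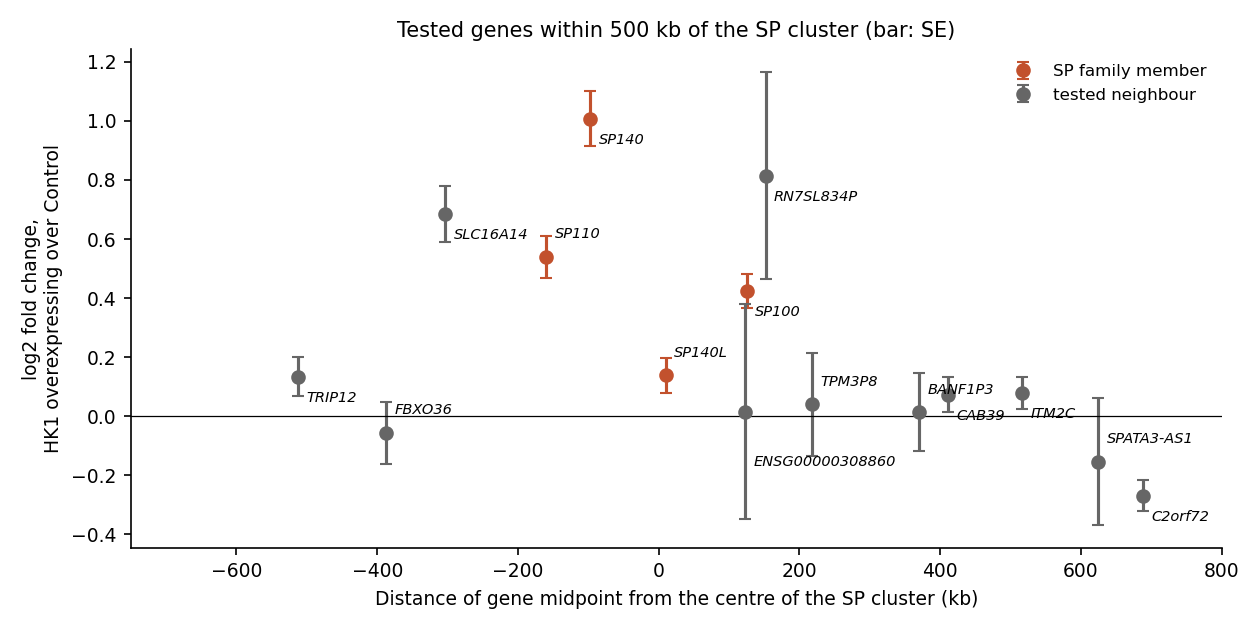
Log2 fold change of HK1-overexpressing over Control cells (points, standard error as bars) for the 4 members and the 11 tested neighbours, against the distance of each gene's midpoint from the centre of the cluster in kilobases. SP140 (1.01), SLC16A14 (0.68), SP110 (0.54) and SP100 (0.42) stand above 0, with SP140L (0.14) between them. RN7SL834P within SP100 (0.81, SE 0.352) was not called and passed the filter on low counts only through the HK1-overexpressing group. Neighbours farther out lie near 0 except C2orf72 (-0.27), and the widest bars belong to genes under 1 CPM.

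Of 25 genes for PML body proteins, all tested, 0 rose and 1 fell (4%, against 4.15% of all tested genes), with a median log2 change of -0.05. At an unadjusted edgeR p below 0.05, 1 was higher and 4 lower, and neither DESeq2 nor limma-voom called any higher. PML itself, named outside the naming rule, had 14.3, 15.2 and 14.7 CPM in HK1-overexpressing libraries and 13.0, 12.7 and 13.8 CPM in Control (log2 0.16, SE 0.0815, edgeR adjusted p = 0.266). The fall was of ASF1A, a histone H3-H4 chaperone (log2 -0.21, SE 0.0595, edgeR adjusted p = 0.0449), and its call was lost when Control replicate 3 or any HK1-overexpressing replicate was dropped (edgeR adjusted p = 0.0559 to 0.223). USP7, a deubiquitinase, had a log2 change of -0.16 and DAXX, a histone H3.3 chaperone, of -0.66, and neither passed (edgeR adjusted p = 0.0683 and 0.195). USP7 passed without Control replicate 2 and DAXX without HK1-overexpressing replicate 1 (edgeR adjusted p = 0.0486 and 0.0116). DAXX also has exons on alternate sequences, where copies can take its fragments. With Control replicate 2 left out 4 genes fell, and with Control replicate 1 left out 2 rose.

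Of 19 tested genes of the SUMO machinery 0 rose and 0 fell by edgeR, DESeq2 and limma-voom alike, with a median log2 change of -0.04, or 0.000384 with library totals in place of TMM factors. At an unadjusted edgeR p below 0.05, 0 were higher and 3 lower. SENP1, a SUMO protease, had 32.1 ± 1.90 CPM in HK1-overexpressing cells and 37.5 ± 2.12 CPM in Control (SD, n = 3 each, edgeR adjusted p = 0.0682). Without Control replicate 1, 1 gene rose and 2 fell. Without Control replicate 2, 2 fell, SENP1 among them (edgeR adjusted p = 0.0115).

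Of 15 tested genes with a SAND domain or a PHD finger and bromodomain, 2 fell (13.3%, against 4.15% of all tested genes) and 0 rose (median log2 -0.04, or -0.000891 with library totals), and 0 were higher at an unadjusted edgeR p below 0.05 or by DESeq2 or limma-voom. DEAF1, a SAND-domain transcription factor, had 20.3, 17.7 and 20.8 CPM in HK1-overexpressing libraries and 24.5, 27.4 and 23.2 CPM in Control (log2 -0.35, edgeR adjusted p = 0.0224). Like DAXX, it has exons on an alternate sequence as well. TRIM28, the co-repressor KAP1, fell by 0.21 on the log2 scale (edgeR adjusted p = 0.0156). Both calls were lost without any 1 HK1-overexpressing replicate (edgeR adjusted p = 0.0516 to 0.152), and 4 genes fell without Control replicate 2. Of 18 heterochromatin genes 4 fell (22.2%, against 4.15% of all tested genes) and 0 rose (median log2 -0.09), again with 0 higher at an unadjusted edgeR p below 0.05 or by the other tools. They were CBX5, the gene of HP1 alpha, which binds SP100 (log2 -0.19), HMGB2, a chromatin protein that also binds SP100 (log2 -0.39, edgeR adjusted p = 0.000243), DNMT1 of maintenance DNA methylation (log2 -0.24) and its cofactor UHRF1 (log2 -0.31). Leaving out Control replicate 3 left 2 falls, those of HMGB2 and DNMT1, and leaving out HK1-overexpressing replicate 1 or 2 left 1, that of HMGB2. A rise of 1 gene appeared without Control replicate 1. CBX5 also lost its call with library totals (edgeR adjusted p = 0.0821) and when HK1-overexpressing replicate 3 was dropped (edgeR adjusted p = 0.157). A list of 8 held 6 topoisomerase genes, whose products SP140 is known to hold back in macrophages, and RMI1 and RMI2, which encode partners of topoisomerase III. Of the 8, 3 fell (37.5%, against 4.15% of all tested genes) and 0 rose, with 0 higher at an unadjusted edgeR p below 0.05 or by the other tools. Of the topoisomerase genes themselves TOP2A alone fell. TOP2A fell by 0.34 on the log2 scale (edgeR adjusted p = 0.00119). RMI1 and RMI2 fell by 0.29 and 0.39, but only TOP2A was called by DESeq2, or when Control replicate 3 or a single HK1-overexpressing replicate was dropped. RMI1 also lost its call with library totals, with limma-voom and when Control replicate 1 was dropped (adjusted p = 0.0734, 0.0551 and 0.0734).

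ETS1, a transcription factor that binds SP100, is on none of the lists and was named as a partner of SP100. It was higher in HK1-overexpressing cells, while CBX5 and HMGB2, whose products also bind SP100, had log2 changes of -0.19 and -0.39. ETS1 had 34.7, 35.6 and 36.3 CPM in HK1-overexpressing libraries, against 21.01, 16.8 and 19.1 CPM in Control (log2 0.90, SE 0.0812, edgeR adjusted p = 8.19e-06). The groups did not overlap.

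Of 52 interferon-stimulated genes listed outside the family, 40 passed the filter, of which 17 rose (42.5%, against 3.87% of all tested genes) and 0 fell, with a median log2 change of 0.22, against 0.0063 over all tested genes. At an unadjusted edgeR p below 0.05, 22 were higher and 3 lower, and 0 fell by DESeq2 and limma-voom. GBP1, an interferon-induced GTPase, had 42.5, 43.6 and 42.2 CPM in HK1-overexpressing libraries and 28.9, 26.4 and 26.9 CPM in Control (log2 0.64, edgeR adjusted p = 2.93e-05). GBP3 of the same family rose by 0.86 (edgeR adjusted p = 0.000282), and MX1 and PARP14 by 0.67 and 0.43. Dropping Control replicate 3 left 11 rises, and dropping HK1-overexpressing replicate 1, 2 or 3 left 9, 10 or 11. Of the 17, SAMD9L, named after its values were seen, averaged 0.746 CPM in HK1-overexpressing cells and 0.186 CPM in Control, so it passed the filter on low counts only through the group where it was higher. OAS2, also named after its values were seen, is among the 22 but was not called. At 0.715 CPM in HK1-overexpressing cells and 0.392 CPM in Control, it passed the filter in the same way. The counts of 17 and 22 thus include genes that were tested only because they were higher. The list was drawn up with earlier results of these data known, so it is not independent evidence. Of 21 tested genes of interferon signalling 1 rose (4.76%, against 3.87% of all tested genes) and 0 fell (median log2 0.13), with 7 higher and 3 lower at an unadjusted edgeR p below 0.05 and 0 falling by DESeq2 and limma-voom. The rise was of JAK1, the kinase shared by interferon receptors, with 254.0, 253.2 and 261.5 CPM in HK1-overexpressing libraries and 230.5, 191.2 and 199.2 CPM in Control (log2 0.31, edgeR adjusted p = 0.00827). The call was lost when replicate 3 of Control or of the HK1-overexpressing cells was dropped (edgeR adjusted p = 0.0640 and 0.0571). SOCS3, a feedback inhibitor, had a log2 change of 0.50 and did not pass (edgeR adjusted p = 0.0686). It passed without Control replicate 2 (edgeR adjusted p = 0.0421). In this list 3 genes rose when Control replicate 1 or 2 was dropped. IRF7, an interferon-inducible transcription factor, had a count of 0 in every library.

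**Figure D5:**
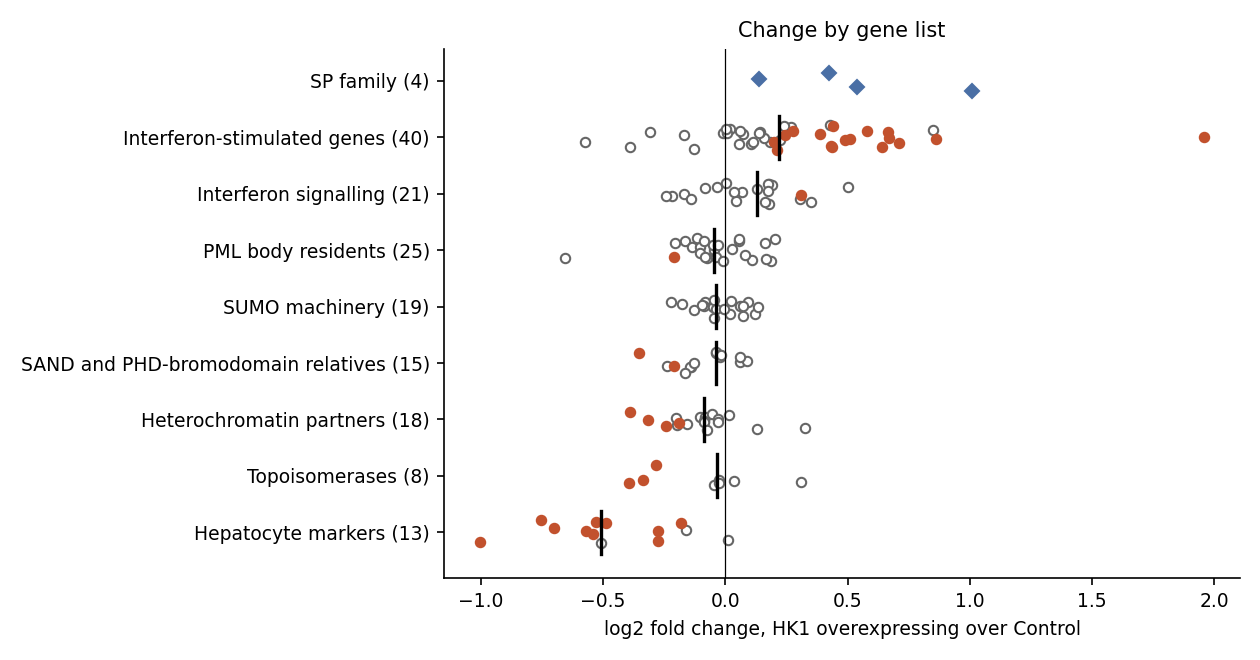
Log2 fold change of HK1-overexpressing over Control cells for each tested gene of 8 lists (circles) and the 4 family members (diamonds, shown as a description), with the number of genes in brackets and spread vertically at random. Filled circles passed the edgeR test at an adjusted p below 0.05 and black lines are medians: 17 of 40 interferon-stimulated genes are filled to the right, and 10 of 13 hepatocyte markers to the left. Among the filled interferon-stimulated genes, SAMD9L passed the filter on low counts only through the HK1-overexpressing group. The topoisomerase list includes RMI1 and RMI2.

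Markers of leukocytes, where SP140 is best known, were at or near 0. Of 16 markers, 15 had 0 to 9 counts in every library and only CD14 passed the filter, at 3.31 ± 0.384 CPM in HK1-overexpressing cells and 3.46 ± 0.268 CPM in Control (SD, n = 3 each, edgeR adjusted p = 0.839). MS4A1, CD79B, CD48 and AIF1 had no count in any library. Summed over the list, the level was 3.88 to 5.05 CPM in HK1-overexpressing libraries and 4.01 to 4.88 CPM in Control. The hepatocyte marker ALB, the albumin gene, was at 3415 ± 68.4 CPM in HK1-overexpressing cells and 4925 ± 107.6 CPM in Control (SD, n = 3 each). Of 13 such markers 10 fell (76.9%, against 4.15% of all tested genes) and 0 rose, with a median log2 change of -0.51, against 0.0063 over all tested genes. At an unadjusted edgeR p below 0.05, 0 were higher, and 0 rose by DESeq2 and limma-voom. The summed hepatocyte list was 12190 to 12540 CPM in HK1-overexpressing libraries and 16030 to 16630 CPM in Control, without overlap, and its part in the values of the family was not tested.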

How the data were processed

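RNA-seq of 6 Huh7 libraries was analysed from the deposited counts. Per the file headers, the authors counted exons by gene name with featureCounts 1.5.3 in paired mode on GENCODE release 47, with no strand option. Trim Galore, Subread and hg38 are named in the submitters' processing notes, and a stranded mRNA kit in the labels' protocols. All values were whole numbers of at least 0.

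TMM factors and filterByExpr were applied, leaving 16734 genes. The comparison of the groups used edgeR 4.0.16 (R 4.3.3), robust quasi-likelihood, without covariates. P-values were adjusted over all tested genes (Benjamini-Hochberg, threshold 0.05). Log2 changes are HK1-overexpressing over Control, with approximate standard errors from the F statistic. The members and gene lists were chosen with earlier results of these data known. Genes named from a list were up to 4 called members of smallest p and, where fewer than 2 were called, the 2 uncalled ones of smallest p. Some genes that this rule or the likeness rule picks are not reported here. Alternatives were other scalings and filters, DESeq2 1.42.0, limma 3.58.1 (voom), a replicate block and leaving out each library. On simulated data for this comparison, with 16454 genes tested, 52% of 50 genes seeded at 1.25-fold and 92% of 50 at 1.5-fold were recovered, and 11.3% of calls were false. Promoter windows are from RefSeq, and motifs were matched exactly.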

Additional observations from a re-analysis of the deposited data

How the results depend on the processing

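Given as a description of members chosen on this contrast, the log2 change kept its direction for all 4 under the 13 alternatives, at 0.96 to 1.08 for SP140, 0.52 to 0.58 for SP110, 0.40 to 0.46 for SP100 and 0.12 to 0.18 for SP140L. With library totals only, SP140L was at 0.18, 0 PML body genes fell and 2 interferon signalling genes rose. Without a filter, 3 PML body genes fell and 2 interferon signalling genes rose. With a mean CPM of at least 5, limma-voom or the replicate block, 0 PML body genes fell, and with DESeq2 1 topoisomerase gene fell. The replicate block left 1074 genes called, and under it neither ASF1A nor CBX5 was called (edgeR adjusted p = 0.0716 and 0.0745). Deviations of same-numbered libraries correlated at 0.0203, 0.0650 and -0.0110, and those of differently numbered libraries at -0.0519 to 0.0350. With 3 libraries per group these values cannot show whether the numbers pair the libraries, and the labels do not say.

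Leaving out 1 library gave 536 to 2257 called genes, 286 to 1172 higher and 250 to 1085 lower, against 1342, 648 and 694 with all 6. The rises and falls were 0 to 2 and 0 to 4 for PML body genes, and 0 to 1 and 0 to 2 for SUMO genes. Rises were 9 to 20 for interferon-stimulated genes and 0 to 3 for interferon signalling. Falls were 0 to 4 for domain relatives and 1 to 3 for the topoisomerase list, which includes RMI1 and RMI2. Heterochromatin genes had 0 to 1 rises and 1 to 6 falls, and neighbours 1 to 2 rises and 0 to 1 falls.

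The log2 ratio of SP140L to SP100 per exon length, 0.74 in HK1-overexpressing cells and 1.02 in Control, became -0.586 and -0.301 without length, and -0.0432 and 0.241 with the coding transcript length. That of SP140 to SP110, 0.17 and -0.30, became -0.771 and -1.24 without length, and -1.19 and -1.66 with the coding transcript length. The transcript length was chosen after the data were seen. The cause of the other shifts was not tested. Depth limits SP140 most, at 130 to 149 counts per Control library.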
